A study of Mus musculus with 11 samples.

Results

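The genes described here are the Wnt ligands, their Frizzled receptors and Lrp co-receptors, and the secreted proteins of the Sfrp, Dkk and Rspo families that damp or amplify the signal. A gene was included when its single symbol in the platform annotation was a numbered Wnt, Fzd, Sfrp, Dkk or Rspo, or Lrp5 or Lrp6, and it was read from its brightest probe set, the one with the highest mean signal over the 11 arrays. This gave 43 of the 18193 genes measured: 19 Wnts, 10 Frizzleds, 4 Sfrps, 4 Dkks, 4 Rspos and 2 Lrps. The rule uses gene symbols and mean signal only, but it was set with earlier results of these data known.

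Wnt proteins are short-range lipid-modified ligands that bind Frizzled receptors. With an Lrp5 or Lrp6 co-receptor they stabilise beta-catenin, which acts with TCF and LEF factors on transcription, while other Wnt and Frizzled pairs act on cell polarity and movement. In the intestinal crypt this pathway maintains the stem cells at the base, and much of the ligand and Rspo supply comes from stromal cells beneath the epithelium. Sfrps bind Wnts outside the cell, Dkks act mainly on Lrp co-receptors, and Rspos raise the amount of Frizzled and Lrp at the surface through Lgr receptors.

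The arrays measured total RNA from whole colon of adult C57BL/6 mice. The groups were control colon taken before imatinib (n = 3), colon at 3 h after an imatinib injection (n = 4) and colon at 12 h after the injection (n = 4). Imatinib is an inhibitor of Abl, Kit and PDGF receptor tyrosine kinases. No vehicle-injected group and no controls matched for hour were analysed here, so effects of imatinib, of being injected and of the time of day cannot be told apart. Whether each array is a separate mouse is not in the labels, and the p-values then cover only the spread among these samples, which may be technical. In bulk tissue, fewer cells of a type and less RNA per cell cannot be told apart either.

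Signals were linear array units that averaged 100 on every array after trimming, and the array medians lay between 16.8 and 23.9. Mean signal was under 16 for 18 members, between 16 and 100 for 19, and at least 100 for 6. Changes are differences of log2(signal + 16) ± SE from limma, which understates changes of dim genes, and a gene was called at a Benjamini-Hochberg adjusted p under 0.05 over all 18193 genes. Markers of pancreatic acinar cells (10 of 12 measured) had a mean log2 level above 10 on 5 arrays, control replicate 1, 3 h replicate 3 and 12 h replicates 1, 3 and 4, and ranged from 5.34 to 13.19 over all arrays. Each called change is therefore also given without those 5 arrays, which leaves 2 arrays in the control group, 3 at 3 h and 1 at 12 h, the lone array being assumed to vary like the others. Epithelial markers (10 of 10 measured) had a mean log2 level of 11.29 to 11.51 on all arrays. This list does not tell the colon from other parts of the intestine. Control RNAs with poly-A tails, added to the samples, were at 7.62 to 8.49 on the 12 h arrays, above the 7.18 to 7.47 of the others, and their part in the 12 h differences was not tested.

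Between control and 3 h, Frizzled2 and Frizzled7 fell and no member rose. Both were higher at 12 h than at 3 h, as was Rspo3, while Fzd4 and Dkk3 were lower at 12 h than at 3 h. Against control, Sfrp2 was the only member called at 12 h, and it was lower. None of the 19 Wnt ligands was called in any of the 3 comparisons.

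**Figure D1:**
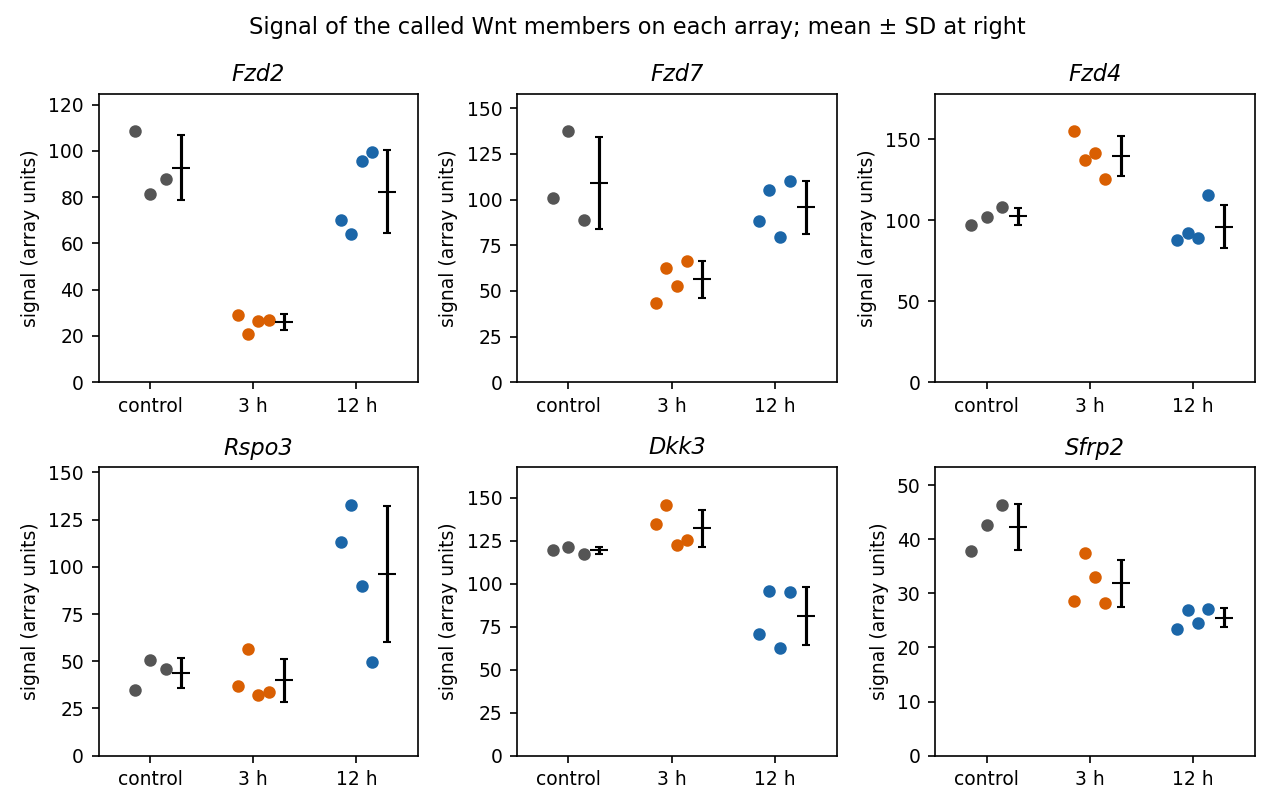
Signal in array units for the 6 called genes on every array, with the group mean ± SD to the right of the points (n = 3, 4 and 4 for control, 3 h and 12 h). The 3 h arrays of Fzd2, at 21.0 to 29.0, lie below every other array, and the 12 h arrays of Rspo3 spread from 49.4 to 132.9.

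At 3 h against control 2 of 43 members were called (4.65%), both lower, where 2.54% of all genes were called, 1.43% higher and 1.11% lower. At 12 h against control 1 of 43 was called (2.33%), where 1.62% of all genes were called, 0.781% higher and 0.835% lower. Between 12 h and 3 h 5 of 43 were called (11.6%), 3 higher and 2 lower, where 4.08% of all genes were called, 1.99% higher and 2.09% lower. The counts are small, and no test of the family as a whole was made. Median changes were -0.03, -0.07 and -0.01 for the members and -0.02, -0.01 and 0.01 for all genes, in the same order. At 3 h against control the arrays did not overlap for 11 members, 5 higher and 6 lower, against 15.3% of all genes, 6.76% higher and 8.55% lower. At 12 h against control this held for 6 members, 1 higher and 5 lower, against 13% of all genes, 6.02% higher and 6.96% lower. Between 12 h and 3 h it held for 5 members, 2 higher and 3 lower, against 11.5% of all genes, 6.28% higher and 5.26% lower. Unadjusted p was under 0.05 for 9, 8 and 6 members, against 15%, 15.8% and 17.7% of all genes. The 12 h against 3 h comparison shares its arrays with the other comparisons and is not independent of them.

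**Figure D2:**
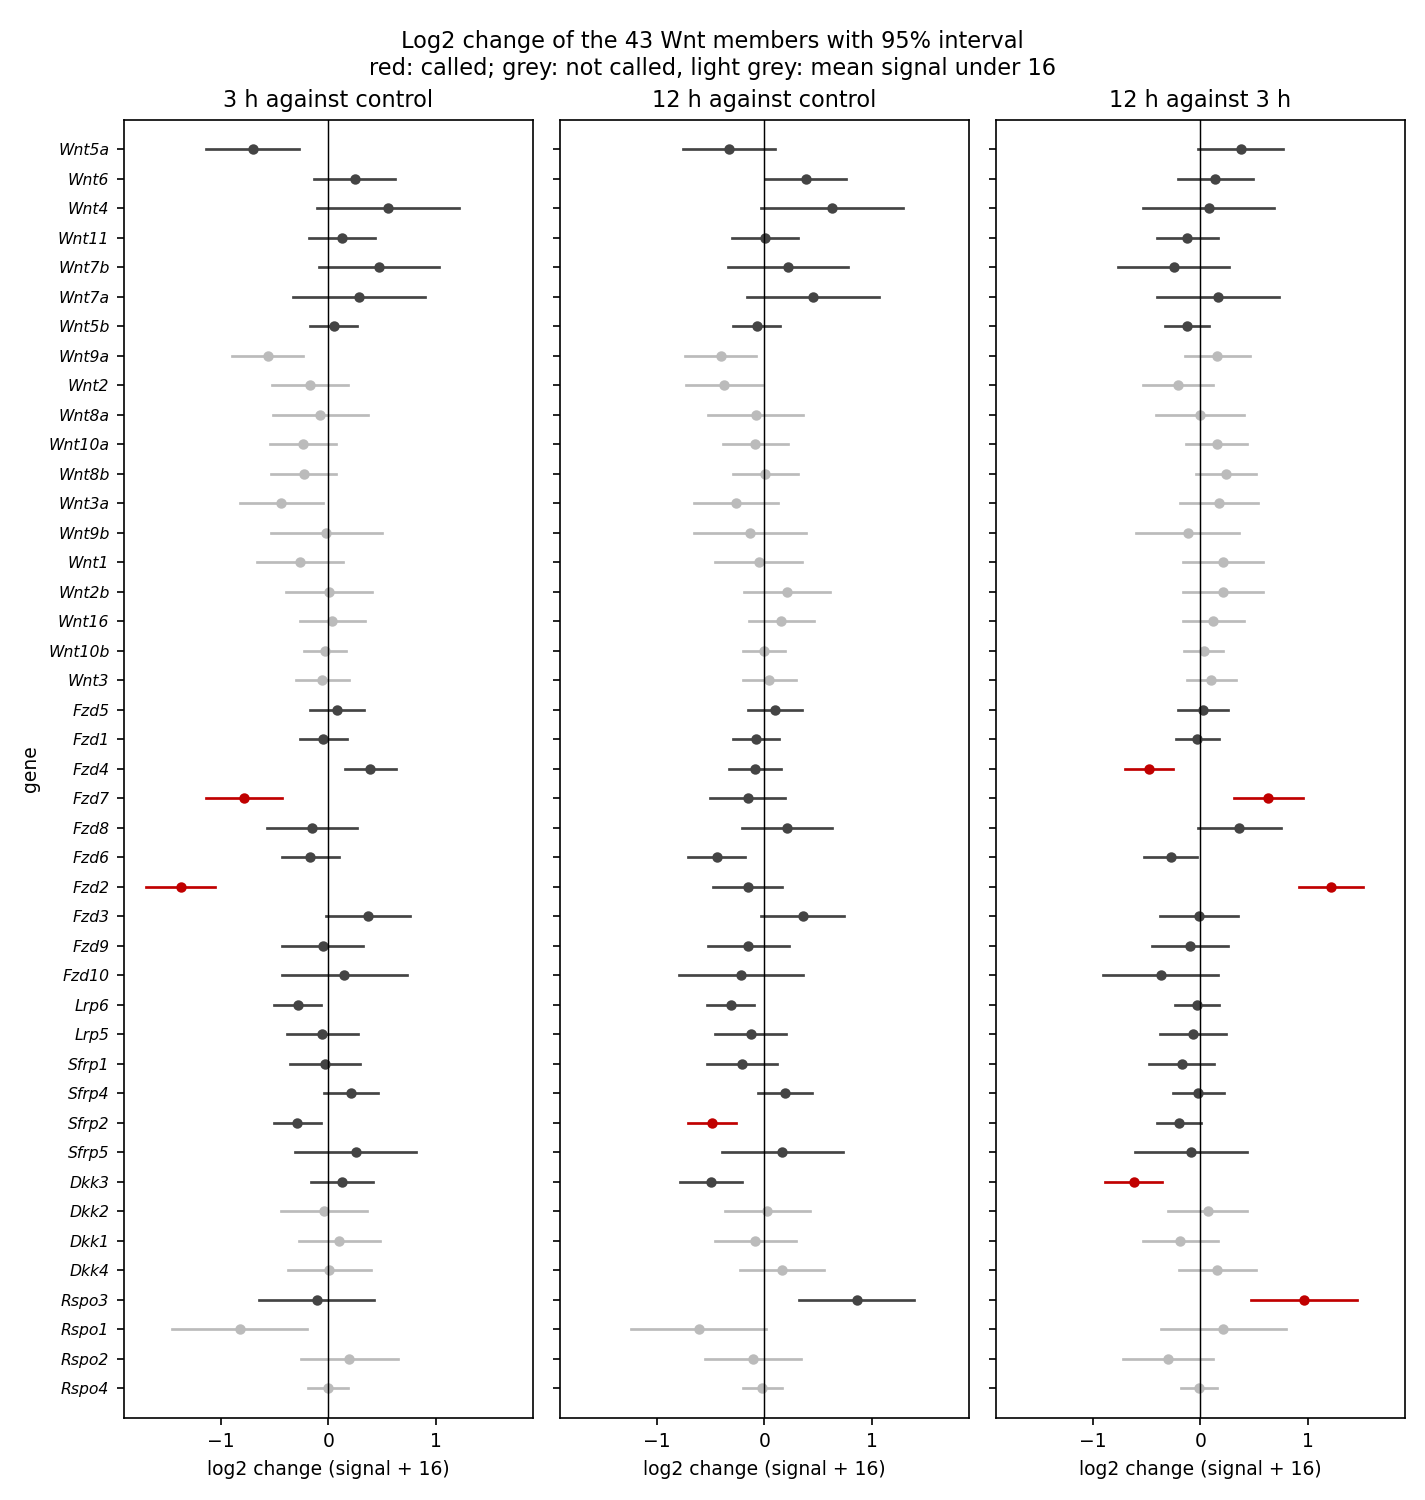
Log2 change of signal + 16 for the 43 genes in each comparison, with 95% intervals from limma, listed by family. Red points were called, dark grey points were not, and light grey points have a mean signal under 16; the intervals of Fzd2 at 3 h and between 12 h and 3 h lie farthest from 0.

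Of the 19 Wnt ligands, 7 had a mean signal of at least 16 and 12 a lower one, so for most of them a change could only be seen if it was large. Changes ran from -0.70 for Wnt5a to 0.55 for Wnt4 at 3 h, and from -0.41 for Wnt9a to 0.63 for Wnt4 at 12 h. Between 12 h and 3 h they ran from -0.25 for Wnt7b to 0.37 for Wnt5a. The lowest adjusted p-values of the family in limma were 0.077, 0.211 and 0.32. Unadjusted p was under 0.05 for Wnt3a, Wnt5a and Wnt9a at 3 h, all lower, for Wnt2 and Wnt9a (lower) and Wnt6 (higher) at 12 h, and for 0 Wnts between 12 h and 3 h.

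Wnt5a, a ligand of polarity signalling made by intestinal stroma, had control signals of 82.2, 69.0 and 79.4. Its 3 h signals were 29.7, 38.5, 46.0 and 52.2, and its 12 h signals 53.9, 80.2, 35.6 and 69.5. All 3 h arrays were below all controls, while the 12 h arrays spread over both ranges. The change at 3 h was -0.70 ± 0.20 with an adjusted p of 0.0903 in limma, so it was not called, and at 12 h it was -0.33 ± 0.20 with an adjusted p of 0.473. Without 12 h replicate 3 the 3 h change of Wnt5a was called. The 4 probe sets of Wnt5a gave -0.70, -0.68, -0.50 and -0.22 at 3 h.

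Wnt6 and Wnt4 were not called either. Wnt6 signals were 33.6, 28.5 and 31.1 in controls, 33.2, 53.0, 41.9 and 33.4 at 3 h, and 67.3, 37.8, 34.1 and 47.4 at 12 h. The 12 h arrays of Wnt6 lay above the controls without overlap, but the change of 0.39 had an adjusted p of 0.306. Wnt4, which acts in Müllerian and kidney development and is also made in gut, varied widely within the control and 12 h groups. Its controls were 5.5, 33.5 and 23.3, its 3 h signals 36.6, 36.1, 32.7 and 34.6, and its 12 h signals 30.5, 55.0, 60.8 and 16.8, with adjusted p-values of 0.439 and 0.342 against control in limma. A second Wnt4 probe set (mean signal 25.2) averaged 26.5 in controls, 20.6 at 3 h and 28.8 at 12 h. Control replicate 1 was at 37.3 there, against 5.5 in the brightest probe set. Wnt9a, a dim ligand, had the lowest adjusted p at 3 h, with a change of -0.56 ± 0.15 from control signals of 23.7, 21.7 and 13.9 to 2.7, 8.7, 9.1 and 12.7. These 3 h signals lie below the offset of 16, where differences are compressed. In a second Wnt9a probe set (mean signal 10.6) the 2 groups overlapped. Its controls were 20.4, 6.4 and 9.0, and its 3 h signals 9.3, 13.1, 5.0 and 8.1. Wnt5b was read from a probe set with a mean signal of 16.1, and its changes of 0.05 and -0.07 against control were not called. In a dimmer Wnt5b probe set (mean signal 6.83) the 3 h and 12 h arrays lay below the controls without overlap. Signals there were 13.5 to 15.7 in controls, 1.9 to 8.9 at 3 h and 1.2 to 3.0 at 12 h, all below the offset.

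Among the 10 Frizzled receptors, 2 fell and 0 rose at 3 h, 0 were called at 12 h against control, and 2 were higher and 1 lower at 12 h than at 3 h. For the called genes found in the RefSeq promoter table, Fzd7, Fzd4 and Sfrp2, the 250 bases before the annotated start are shown from GRCm38.p6, on the plus strand, since these are the genes whose RNA differed between groups. Promoter entries were matched for 27 of the 43 members. Capitals mark exact matches, on either strand, to any of 7 short motifs. The cores of TCF and LEF sites were searched as CTTTGA and as CTTTGT, the CCAAT box by its name's letters and the GC box as GGGCGG. The TATA box was searched as TATAAA, a glucocorticoid receptor element by its core AGAACA, and the E-box as CACGTG. The Fzd7 window is chr1:59481897-59482146, the Fzd4 window chr7:89404116-89404365 and the Sfrp2 window chr3:83766071-83766320.
Fzd7: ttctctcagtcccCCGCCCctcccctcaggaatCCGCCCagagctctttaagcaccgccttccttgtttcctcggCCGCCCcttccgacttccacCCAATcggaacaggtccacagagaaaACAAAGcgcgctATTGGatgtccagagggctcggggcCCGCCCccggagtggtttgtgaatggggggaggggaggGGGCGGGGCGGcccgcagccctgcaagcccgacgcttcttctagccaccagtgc
Fzd4: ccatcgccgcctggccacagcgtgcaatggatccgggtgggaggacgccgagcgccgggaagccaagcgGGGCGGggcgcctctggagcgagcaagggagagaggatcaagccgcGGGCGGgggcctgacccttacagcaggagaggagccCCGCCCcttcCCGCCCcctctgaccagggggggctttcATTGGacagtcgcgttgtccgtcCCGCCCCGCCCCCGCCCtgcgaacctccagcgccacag
Sfrp2: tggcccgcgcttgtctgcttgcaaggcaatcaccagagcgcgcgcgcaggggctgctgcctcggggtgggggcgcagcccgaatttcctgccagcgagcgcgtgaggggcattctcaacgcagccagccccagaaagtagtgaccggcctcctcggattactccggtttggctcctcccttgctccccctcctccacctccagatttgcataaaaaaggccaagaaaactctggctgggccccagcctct

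The Fzd7 window (65.2% G and C) held 6 GC boxes, 2 CCAAT boxes and 1 CTTTGT, read as ACAAAG on the strand shown, 129 bases before the start. The Fzd4 window (72.8%) held 7 GC boxes and 1 CCAAT box, and the Sfrp2 window (63.6%) held 0 matches. Neighbouring GC boxes overlap by a base in both Frizzled windows. Over all 32851 promoter windows of this length GGGCGG was present in 32.7%, CCAAT in 33.8%, CTTTGT in 16.5%, CTTTGA in 13.8%, TATAAA in 12.4%, AGAACA in 16.1% and CACGTG in 6.0%. Among the 27 matched members 20 held GGGCGG, 10 CCAAT, 5 CTTTGT, 4 CTTTGA, 4 TATAAA, 3 AGAACA and 3 CACGTG. A member counted here if any of its windows held the motif, so these counts and the shares per window differ in unit. A match describes letters and shows no binding.

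Fzd2, a receptor used in both beta-catenin and polarity signalling, had the largest change of the 43 members at 3 h and between 12 h and 3 h. Control signals were 108.5, 81.5 and 87.9 (92.6 ± 14.1 SD, n = 3), 3 h signals 29.0, 21.0, 26.6 and 26.8 (25.9 ± 3.41, n = 4), and 12 h signals 70.2, 64, 95.4 and 99.7 (82.3 ± 17.8, n = 4). Every 3 h array was lower than every control and every 12 h array, while the 12 h arrays overlapped the controls. Fzd2 fell by 1.37 ± 0.15 on the log2 scale at 3 h (95% interval -1.69 to -1.05, adjusted p 0.000513 in limma). From 3 h to 12 h it was higher by 1.22 ± 0.14 (0.92 to 1.52, adjusted p 0.00044). At 12 h against control the difference was -0.15 ± 0.15, with an interval of -0.48 to 0.17 and an adjusted p of 0.695.

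Both dimmer probe sets of Fzd2 moved in the same directions. Their 3 h changes were -1.19 ± 0.15 and -0.98 ± 0.17, and their changes from 3 h to 12 h were 0.91 and 0.83. Leaving out any single array kept both Fzd2 calls, with adjusted p-values up to 0.00384 and 0.00248. Without the 5 arrays high in pancreatic transcripts the 3 h change was -1.28 with an adjusted p of 0.0202, and the difference from 3 h to 12 h was 0.95 with an adjusted p of 0.151.

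Fzd7, a Frizzled known for its role in intestinal stem cells, had control signals of 100.9, 137.5 and 88.9 (109.1 ± 25.3 SD, n = 3). Its 3 h signals were 43.5, 62.6, 52.7 and 66.4 (56.3 ± 10.3, n = 4), and its 12 h signals 88.2, 105.3, 79.3 and 110.3 (95.8 ± 14.5, n = 4). The 3 h arrays again lay below both other groups without overlap. Fzd7 fell by 0.78 ± 0.16 at 3 h (95% interval -1.13 to -0.43, adjusted p 0.0256 in limma) and was higher by 0.63 ± 0.15 at 12 h than at 3 h (adjusted p 0.0352). At 12 h against control the change was -0.15 ± 0.16 with an adjusted p of 0.726. The 3 h call was lost, with adjusted p up to 0.107, when control replicate 1 or 2 or 3 h replicate 1, 2 or 3 was left out, and the call from 3 h to 12 h, with adjusted p up to 0.104, without 3 h replicate 1, 2 or 3 or 12 h replicate 1, 2 or 4. Without the 5 arrays high in pancreatic transcripts the changes were -0.80 and 0.74, with adjusted p-values of 0.224 and 0.392. A dimmer Fzd7 probe set, with a mean signal of 4.28, gave -0.17 at 3 h and 0.27 from 3 h to 12 h.

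Fzd4, the receptor for Norrin in vessels as well as for Wnts, ran the other way. Control signals were 97.2, 101.7 and 107.9 (102.3 ± 5.37 SD, n = 3), 3 h signals 154.9, 136.8, 141.3 and 125.1 (139.5 ± 12.3, n = 4), and 12 h signals 87.5, 91.9, 89.0 and 115.4. In this probe set every 3 h array was above every other array. Against control the 3 h change of 0.39 ± 0.11 was not called (adjusted p 0.0903 in limma), whereas Fzd4 was lower at 12 h than at 3 h by -0.48 ± 0.10 (adjusted p 0.0234). That call was lost without any of 3 h replicates 1 to 3 or 12 h replicates 1 to 3, with adjusted p up to 0.0736, and was at -0.52 with an adjusted p of 0.338 without the 5 arrays high in pancreatic transcripts. The 3 probe sets of Fzd4 gave -0.48, -0.32 and -0.09 for this comparison. In the second probe set (mean signal 58.8) control replicate 1, at 71.5, lay within the 3 h range of 59.6 to 74.7. Endothelial markers (6 of 6 measured) were at 5.60 to 5.75 in controls, 5.64 to 5.81 at 3 h and 5.41 to 5.74 at 12 h, with overlap between all groups. Adipocyte markers (6 of 8 measured, Lep at a mean signal under 16) were at 6.70 to 7.15 in controls, 7.49 to 7.93 at 3 h and 6.92 to 7.93 at 12 h. Skeletal muscle markers (5 of 5 measured, Myh4 and Tnnt3 at mean signals under 16) were at 5.29 to 5.39, 5.50 to 5.60 and 5.26 to 5.56. Both lists were higher at 3 h than in controls without overlap, as the brightest probe set of Fzd4 was, and overlapped between 3 h and 12 h. The part of these cell types in the Fzd4 differences was not tested.

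**Figure D3:**
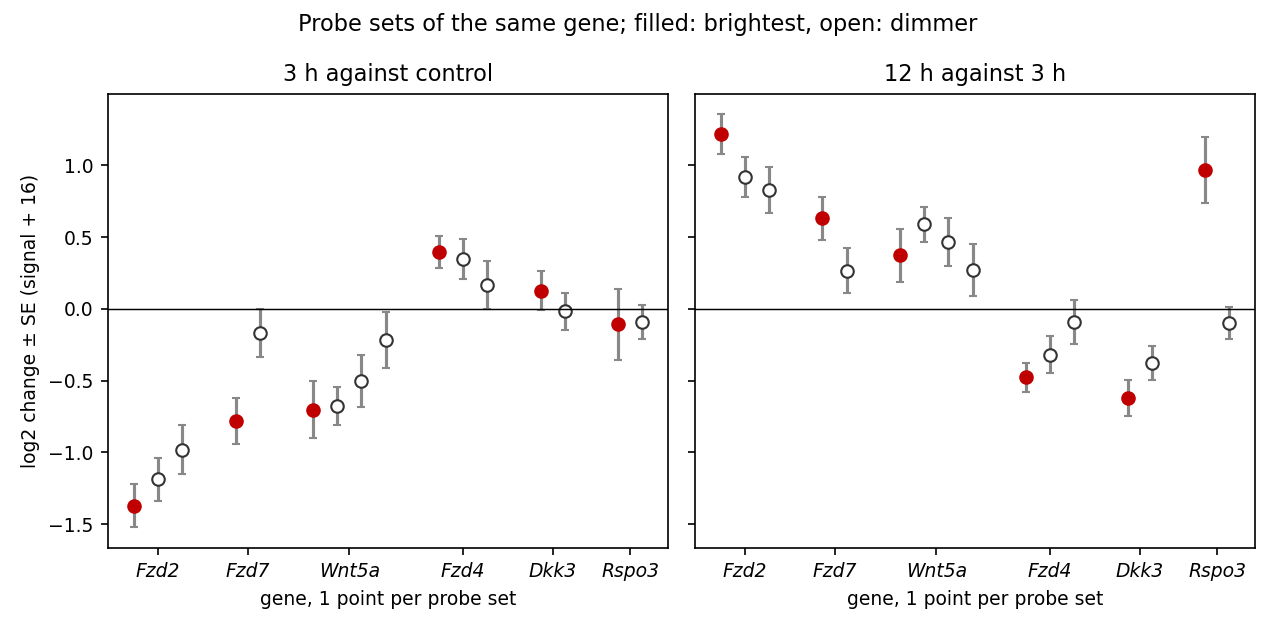
Log2 change ± SE of each probe set of 6 genes, at 3 h against control and at 12 h against 3 h. Filled points are the brightest probe set and open points the dimmer ones; the 3 probe sets of Fzd2 lie at -1.37, -1.19 and -0.98 at 3 h, while the dim second probe set of Fzd7 lies at -0.17 and that of Rspo3 at -0.09.

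The other Frizzleds were not called. Fzd5, the main Frizzled of intestinal epithelium, ranged from 361.8 to 463.9 over all arrays, with changes of 0.08 at 3 h and 0.10 at 12 h (adjusted p 0.835 and 0.748 in limma). Fzd1 ranged from 288.1 to 361.2, and its 3 h change of -0.04 had a 95% interval of -0.26 to 0.17. Fzd8 had control signals of 72.7, 85.7 and 42.4, 3 h signals of 58.3, 54.2, 63.9 and 51.1, and 12 h signals of 65.9, 96.0, 92.7 and 60.4, with overlap between all groups. Fzd6, a receptor of polarity and hair patterning, had control signals of 74.5, 83.5 and 82.0 and 12 h signals of 59.8, 58.9, 57.9 and 42.8. Its 12 h arrays lay below the controls without overlap, but the change of -0.44 was not called (adjusted p 0.0952 in limma). In the dimmer Fzd6 probe sets (mean signals 22.7 and 13.4) these groups overlapped. Their group means went from 20.1 to 18.7 and from 9.17 to 17.6. Neither Lrp co-receptor was called. Lrp6 had control signals of 423.4, 403.7 and 350.2, 3 h signals of 306.1, 304.0, 361.7 and 306.9, and 12 h signals of 321.9, 311.0, 303.0 and 311.6, and its changes of -0.28 and -0.31 had adjusted p-values of 0.186 and 0.148. Lrp5 ranged from 18.7 to 36.4 with changes of -0.06 and -0.13.

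Posterior Hox genes, which mark the distal part of the gut, moved in the same order as Fzd2 and Fzd7. All 9 were measured, 2 of them (Hoxd12 and Hoxc10) at a mean signal under 16, and their mean log2 level was 6.56 to 6.82 in controls, 6.02 to 6.26 at 3 h and 6.54 to 6.68 at 12 h. With this level as a covariate the 3 h change of Fzd2 was -1.18 ± 0.39 (adjusted p 0.839 in limma) and that of Fzd7 -0.80 (adjusted p 0.936). From 3 h to 12 h the values were 1.04 (adjusted p 0.51) and 0.65 (adjusted p 0.72). Because the Hox level was lower on every 3 h array than on any other, it partly restates the group, and with it 0 of the 18193 genes were called at 3 h against control.

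**Figure D4:**
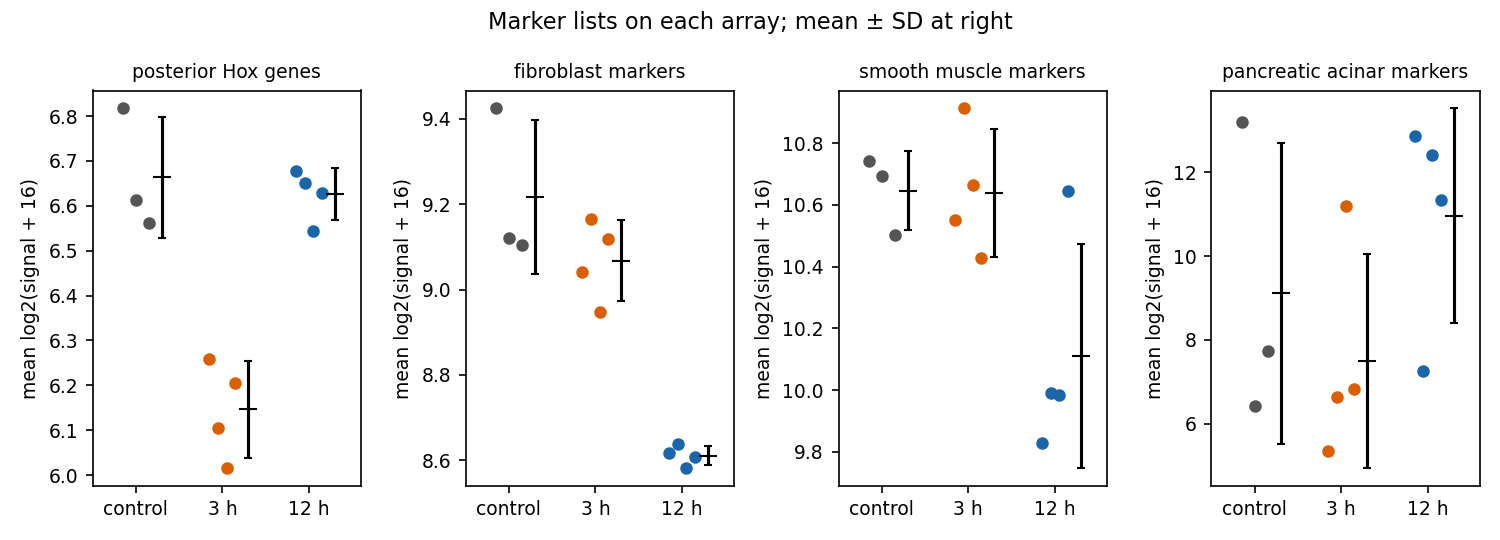
Mean log2(signal + 16) of 4 marker lists on every array, with the group mean ± SD to the right of the points (n = 3, 4 and 4); each panel has its own axis, which does not start at 0. Posterior Hox genes were lowest at 3 h (6.02 to 6.26), fibroblast markers lowest at 12 h (8.58 to 8.64), and pancreatic acinar markers varied within every group.

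Of the secreted Wnt binders of the Sfrp family, 1 of 4 was called. Sfrp2, which is expressed by stromal fibroblasts, had control signals of 37.9, 42.6 and 46.4 (42.3 ± 4.26 SD, n = 3), 3 h signals of 28.5, 37.5, 33.1 and 28.3, and 12 h signals of 23.5, 27.0, 24.5 and 27.1 (25.5 ± 1.81, n = 4). The 12 h arrays lay below all others. Sfrp2 fell by 0.49 ± 0.10 at 12 h against control (adjusted p 0.0369 in limma), and the changes of -0.29 at 3 h and -0.20 between 12 h and 3 h were not called (adjusted p 0.182 and 0.291). The 12 h call held without 3 h replicate 2 or 12 h replicate 4 and was lost without any 1 of the other 9 arrays, with adjusted p up to 0.124. Without the 5 arrays high in pancreatic transcripts the change was -0.49 with an adjusted p of 0.48.

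Sfrp1 and Sfrp4 were not called. Sfrp1 had control signals of 198.3, 169.8 and 172.2 and 12 h signals of 167.7, 147.5, 167.5 and 135.1, lower without overlap, with a change of -0.20 and an adjusted p of 0.584 in limma. In every dimmer probe set of Sfrp1 these groups overlapped. The second (mean signal 122.3) was at 96.3 to 139.1 in controls and 87.8 to 127.1 at 12 h. The third (mean signal 86.3) was at 83.9 to 105.8 and 59.5 to 98.4. Sfrp4 had control signals of 84.2, 78.4 and 90.1 and 3 h signals of 92.2, 100.5, 107.7 and 100.2, higher without overlap, with a change of 0.21 and an adjusted p of 0.438. Sfrp5 ranged from 7.6 to 44.5, and its groups overlapped.

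Of the Dkk family, Dkk3 was the only member with a mean signal above 16. Dkk3 differs from the other Dkks in not acting as a clear Lrp antagonist. Its control signals were 119.6, 121.4 and 117.3 (119.4 ± 2.06 SD, n = 3), its 3 h signals 134.6, 146.0, 122.4 and 125.6, and its 12 h signals 70.9, 96.0, 62.6 and 95.4 (81.2 ± 17.1, n = 4). In this probe set all 12 h arrays were below all others and all 3 h arrays above all controls. Dkk3 was lower at 12 h than at 3 h by -0.62 ± 0.12 (adjusted p 0.0154 in limma). Against control the changes of 0.13 at 3 h and -0.50 at 12 h were not called (adjusted p 0.741 and 0.0878). Leaving out 3 h replicate 2 raised the adjusted p of the call to 0.0508, and leaving out any other single array kept it. A second Dkk3 probe set of nearly equal signal gave -0.38 between 12 h and 3 h, with an adjusted p of 0.104 when it stood for the gene. Its 3 h signals of 108.1, 157.9, 106.0 and 115.0 were not all above its controls of 122.1, 119.5 and 124.1. Without the 5 arrays high in pancreatic transcripts the change was -0.43 with an adjusted p of 0.366. Dkk1, Dkk2 and Dkk4 had mean signals of 6.43, 15.1 and 4.65 and were not called.

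Fibroblast markers were lowest at 12 h, as Sfrp2 and Dkk3 were. All 12 were measured, and their mean log2 level was 9.10 to 9.42 in controls, 8.95 to 9.17 at 3 h and 8.58 to 8.64 at 12 h, below all other arrays. Smooth muscle markers (10 of 10 measured) were at 10.50 to 10.74 in controls, 10.43 to 10.91 at 3 h and 9.83 to 10.64 at 12 h. Replicates 1, 2 and 3 at 12 h, at 9.83, 9.99 and 9.98, lay below all other arrays, and replicate 4 was at 10.64. With the fibroblast level as a covariate the 12 h change of Sfrp2 was -0.65 (adjusted p 0.939 in limma), and the difference of Dkk3 between 12 h and 3 h was -0.46 (adjusted p 0.704). The fibroblast level was lower on every 12 h array than on any other and so partly restates that group: with it 0 of the 18193 genes were called at 12 h against control and 5 between 12 h and 3 h.

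Among the R-spondins, which amplify Wnt signals in the crypt, Rspo3 was called. Rspo3, a main stromal R-spondin of the gut, had control signals of 34.8, 50.4 and 45.7 (43.6 ± 8.0 SD, n = 3), 3 h signals of 36.7, 56.7, 32 and 33.8 (39.8 ± 11.4, n = 4), and 12 h signals of 113.1, 132.9, 89.9 and 49.4 (96.3 ± 35.9, n = 4). Of the 12 h arrays 3 lay above all others, while 12 h replicate 4, at 49.4, fell within the ranges of both other groups. Rspo3 was higher at 12 h than at 3 h by 0.97 ± 0.23 (adjusted p 0.0352 in limma), whereas the 12 h change against control, 0.86 ± 0.25, was not called (adjusted p 0.107), though it was when 12 h replicate 4 was left out and with the replicate number as a block. The call from 3 h to 12 h was lost, with adjusted p up to 0.0961, without control replicate 3, 3 h replicate 1, 3 or 4, or 12 h replicate 1, 2 or 3. Without the 5 arrays high in pancreatic transcripts the difference was 1.37 with an adjusted p of 0.146, and it then rests on 12 h replicate 2 alone. The dim second probe set of Rspo3 (mean signal 2.65) gave -0.10.

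Markers of subepithelial fibroblasts and telocytes, the stromal cells around crypts, were measured for 10 of 10 genes, with Foxl1 and Gli1 at mean signals under 16. Their mean log2 level was 6.59 to 6.75 in controls, 6.46 to 6.64 at 3 h and 6.60 to 6.80 at 12 h, so the ranges overlapped between 3 h and 12 h, and their part in the Rspo3 difference was not tested. Rspo1, a dim member, had control signals of 30.2, 15.6 and 21.9 and 3 h signals of 2.2, 6.9, 15 and 0.6, lower without overlap. Its 3 h change of -0.82 ± 0.29 was not called (adjusted p 0.178 in limma). Rspo2 and Rspo4 had mean signals of 10.7 and 1.36.

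A list of 72 other Wnt pathway genes was used for comparison, of which 70 were measured. At 3 h against control 0 rose and 2 fell (2.86%), at 12 h against control 0 were called, and between 12 h and 3 h 2 rose and 1 fell (4.29%). The median changes were 0.01, 0.01 and 0.03. Unadjusted p in limma was under 0.05 for 10, 13 and 20 of the 70, where it was for 15%, 15.8% and 17.7% of all genes. Lgr4, a receptor for R-spondins, had control signals of 1965.8, 1635.8 and 1795.6, 3 h signals of 1197.1, 1322.4, 1261.3 and 1211.3, and 12 h signals of 1132.7, 1135.0, 1397.8 and 1415.1. Controls were above all other arrays. Lgr4 fell by 0.52 ± 0.11 at 3 h (adjusted p 0.0354), and its 12 h change of -0.50 ± 0.11 was not called (adjusted p 0.0512). The call was lost without any 1 control and without any 1 of the 3 h arrays, with adjusted p up to 0.154, and a dimmer probe set gave 0.16.

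Tnfrsf19, a receptor gene known as a Wnt target in crypts, had control signals of 26.1, 29.7 and 27.5, 3 h signals of 12.2, 13.0, 12.7 and 10.7, and 12 h signals of 19.5, 16.1, 23.9 and 30.2. It was lowest at 3 h on every array. The change was -0.64 ± 0.12 at 3 h (adjusted p 0.0173 in limma) and 0.44 ± 0.11 from 3 h to 12 h (adjusted p 0.0492). The first call was lost without control replicate 1 or 2 (adjusted p up to 0.0784) and the second without any array other than 12 h replicate 2 (up to 0.122). Its dimmer probe sets gave -0.23 and -0.15 at 3 h, and 0.00 and -0.09 from 3 h to 12 h.

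Pygo2, a nuclear partner of beta-catenin, had 3 h signals of 133.1, 136.6, 159.2 and 142.9 and 12 h signals of 209.9, 231.4, 235.7 and 199.3, beside controls of 191.3, 164.1 and 197.3. It was higher at 12 h than at 3 h by 0.56 ± 0.10 (adjusted p 0.00747 in limma), and this held when any single array was left out. Prickle2, a planar polarity gene, had 3 h signals of 102.9, 101.7, 99.0 and 91.6 and 12 h signals of 65.6, 71.3, 77.3 and 74.8. Its 12 h arrays were below all 3 h arrays, with a change of -0.38 ± 0.08 (adjusted p 0.0251), which was lost without 3 h replicate 1, 2 or 3 or 12 h replicate 1 or 2 (up to 0.0757). Without the 5 arrays high in pancreatic transcripts, adjusted p-values were 0.21 for Lgr4, 0.085 and 0.676 for Tnfrsf19, 0.237 for Pygo2 and 0.397 for Prickle2, with each change in the same direction.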

How the data were processed

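Total RNA from 11 colon samples was extracted with Trizol, biotin-labelled and hybridised to Affymetrix arrays, per the labels' protocols. The authors deposited a linear intensity for each probe set and array. Which software made these values is not given in the sources used here, but each array's mean, with the top and bottom 2% trimmed, came to 100 when computed from the table. There were 45101 probe sets, including 64 controls, and 29 values were exactly 0. Of the others 34945 have 1 symbol, 932 several and 9160 none in the platform annotation, with symbols updated through RefSeq of GRCm38.p6 (99.4% of the single-symbol sets matched by Entrez number), and only those with 1 symbol were used.

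Signals were taken as log2(signal + 16) and tested with limma 3.58.1 in R 4.3.3 on all 11 arrays together (8 residual and 3.98 prior degrees of freedom), 2-sided, with Benjamini-Hochberg adjustment over 18193 genes and no filter on level. The script was tested on simulated data. The members, the pathway list and the marker lists were chosen with earlier results of these data known. Full values are given for called members, and signals for the 3 brightest uncalled members of a family. Signals are also given for others named after their values were seen (Fzd6, Wnt5b, Wnt9a and Rspo1). At most 4 called pathway genes per comparison are named. Kremen2 and Tcf7 of the pathway list were not analysed here. The main fit did not pair samples by replicate number. Deviations of same-numbered arrays correlated at -0.208 to 0.309 over 10 pairs, and 3 pairs were above 0.1. For differently numbered arrays they correlated at -0.396 to 0.308 over 30 pairs, and 8 were above 0.1. So few pairs cannot exclude a pairing.

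Alternatives changed the offset, the scaling, the level filter, the use of probe sets, the weights of arrays, the variance model, which arrays were fitted, the threshold and a replicate block, and left out single arrays. After the data were seen, a fit without the pancreatic-high arrays, posterior Hox and fibroblast covariates, and another choice of probe set were added. Plots used matplotlib 3.10.9 (Python 3.11.15).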

Additional observations from a re-analysis of the deposited data

Results flagged for a closer look

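In Fzd5, 12 h replicate 1 stood apart from its group, with a signal of 361.8 where the other 12 h arrays were at 461.1, 463.0 and 463.9. In Lrp6, 3 h replicate 3 stood apart, with a signal of 361.7 where the other 3 h arrays were at 304.0 to 306.9. Each gap was a large share of the group's whole range by Dixon's criterion of 0.829 for 4 samples. Chance gives about 1 such group in 20, and 2 of the 54 groups tested were found.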

How the results depend on the processing

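For the 13 called changes of single genes, 214 of 335 values under the alternatives stayed called, 121 were no longer called and 0 changed direction. The 2 member calls at 3 h became 1 with an offset of 1, 4 with a level filter (Fzd4 and Wnt5a added), 5 at an adjusted p under 0.1, 1 without the 5 arrays high in pancreatic transcripts, 0 with the Hox covariate and 1 with the fibroblast covariate. Leaving out single arrays gave 1 to 3. The 1 member call at 12 h became 0 with an offset of 1, equal medians, quantile normalization, a trend in the variance prior, only the compared groups, without the pancreatic-high arrays or with the fibroblast covariate. It became 2 with the filter, which removes Sfrp2 (Dkk3 and Fzd6 called), 2 with the mean of all probe sets (Wnt5b added) and 3 at an adjusted p under 0.1, and single arrays left out gave 0 to 2. The 5 member calls between 12 h and 3 h became 3 with an offset of 1 and 0 without the pancreatic-high arrays or with either covariate, and single arrays left out gave 2 to 5, with 2 without 3 h replicate 1, 2 or 3 or 12 h replicate 1 or 2 and 3 without 12 h replicate 3.

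The 2 pathway calls at 3 h became 1 with an offset of 1, the mean of all probe sets or the replicate block, 4 with the filter, 7 at an adjusted p under 0.1, and 0 without the pancreatic-high arrays or with either covariate, and 0 to 2 with single arrays left out. The 0 pathway calls at 12 h became 2 with an offset of 64, 1 with quantile normalization, 3 with the filter, 1 with the mean of all probe sets, 2 with a variance trend, 3 at an adjusted p under 0.1, and 0 to 2 with single arrays left out. The 3 pathway calls between 12 h and 3 h became 5 with an offset of 64, 7 with the filter, 5 with the mean of all probe sets, 1 with the replicate block, 8 at an adjusted p under 0.1, and 0 without the pancreatic-high arrays or with either covariate, and 1 to 4 with single arrays left out. The causes were not tested, beyond fewer arrays and covariates that partly restate the groups. Over all genes 463, 294 and 742 calls became 80, 8 and 16 without the pancreatic-high arrays.

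The replicate block gave 2, 1 and 4 member calls. At 12 h its call was Rspo3 (higher) in place of Sfrp2, and between 12 h and 3 h Fzd4 was lost. The number of arrays limits precision, and members at a signal under 16 could show only large changes.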
